A study of Mus musculus with 6 samples.

Results

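The genes described here are those of the unfolded protein response and the integrated stress response, chosen by name as known genes of these pathways. The list holds 32 genes, of which 31 had a row among the 23942 genes of the table, and Chac1 was not analysed here. RNA was sequenced in bulk from mouse liver cells that the labels call lymphocytes and the study calls group 1 innate lymphoid cells (ILC1s), lymphocytes that stay in the tissue and belong to the same lineage group as natural killer cells. Memory ILC1s (3 libraries) came from day 30 of a treatment labelled OXA, an abbreviation that the labels do not spell out, and naive ILC1s (3 libraries) came from day 0 with solvent. The sources used here do not give strain, sex, age, the sort or any pooling of animals, and no library was solvent at day 30, so treatment and elapsed time cannot be told apart.

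The endoplasmic reticulum (ER) is where secreted and membrane proteins fold. When unfolded proteins build up there, the sensors IRE1, PERK and ATF6 start the unfolded protein response. IRE1 splices the Xbp1 mRNA, ATF6 is cut into an active factor, and PERK phosphorylates the translation factor eIF2, which slows protein synthesis and favours translation of Atf4. Other kinases reach the same eIF2 step from other stresses, which gives the integrated stress response its name. The outputs are chaperones, disulfide isomerases and the machinery of ER-associated degradation (ERAD), and with lasting stress the pro-death factor CHOP. In lymphocytes the response is known above all from antibody-secreting plasma cells. Gene-level RNA values do not show splicing, cleavage or phosphorylation directly, so only the amount of each transcript was measured.

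The promoters of many of the chaperone genes hold the letters of the known ER stress element, and some of these sequences are shown first. The element is known from ER stress genes such as these, so its high share in the list is not an independent result. RefSeq promoters on GRCm38.p6, from 250 bases before to 50 bases after a start site, were found by symbol for 27 of the 32 genes. The element ERSE was searched on both strands as CCAAT and CCACG separated by 9 bases. It was present in 9 of the 27 genes (33.3%), against 0.18% of the 12780 genes of the table with a promoter. The related ERSE-II, ATTGG and CCACG separated by 1 base, was present in Dnajb11 and Herpud1 (7.41%), against 0.0626% of all genes. In the stretches below, written along each gene's own strand, the capitals mark the ERSE, or in Herpud1 the ERSE-II.
Hspa5 (chr2:34772015-34772053, plus strand): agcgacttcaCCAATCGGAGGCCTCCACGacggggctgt
Calr (chr8:84847065-84847103, minus strand): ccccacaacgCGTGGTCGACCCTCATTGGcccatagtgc
Canx (chr11:50325790-50325828, minus strand): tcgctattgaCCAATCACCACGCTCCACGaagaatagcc
Pdia6 (chr12:17266481-17266519, plus strand): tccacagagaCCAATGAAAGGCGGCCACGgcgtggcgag
Dnajc3 (chr14:118937817-118937855, plus strand): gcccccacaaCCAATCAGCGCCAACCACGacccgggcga
Creld2 (chr15:88819510-88819548, plus strand): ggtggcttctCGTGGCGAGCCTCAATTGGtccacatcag
Herpud1 (chr8:94386367-94386397, plus strand): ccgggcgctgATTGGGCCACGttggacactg

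In Calr and Creld2 the element read from the opposite strand, so its letters appear as the reverse complement. Hsp90b1 held the ERSE letters at 2 places, and Derl3 and Syvn1 completed the 9 genes. The UPRE core TGACGTG was present in Hspa5 alone (3.7% of the 27, against 2.95% of all genes). The core TGATGCA of the ATF4 response element was present in Herpud1 alone (3.7%, against 2.58% of all genes). Matches of different elements did not overlap in these promoters. A match of letters describes the sequence and was not tested as a binding site.

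**Figure D1:**
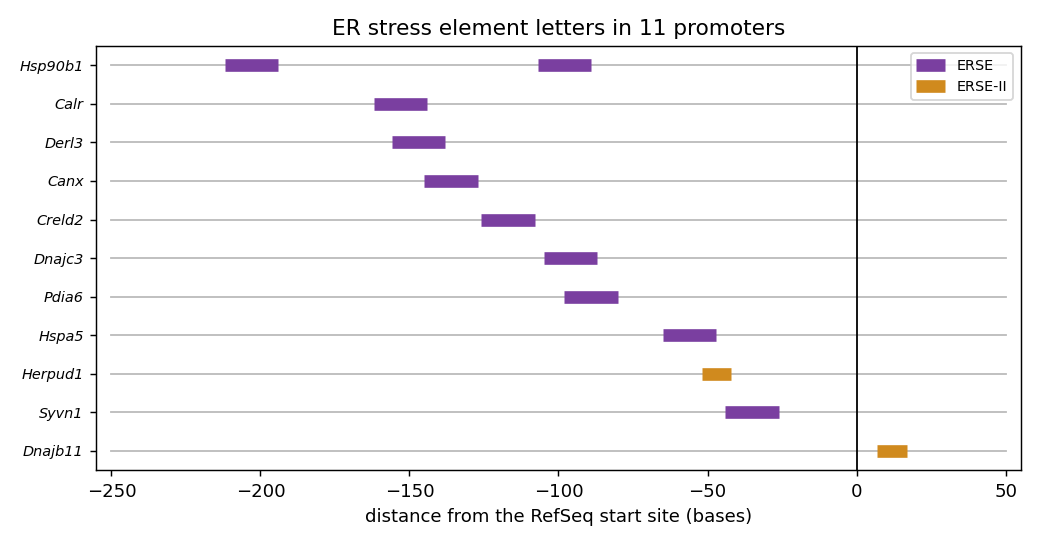
Position of the ERSE (19 bases) and ERSE-II (11 bases) letters in the 11 promoters that hold them, as distance in bases from the RefSeq start site at 0. The matches lie between positions -212 and -26, except in Dnajb11, where the match begins at position 7.

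Both memory and naive ILC1s held large amounts of ER chaperone RNA. The memory libraries held 19849507 to 23795266 reads and the naive libraries 18697093 to 21131528 reads. Values are RPKM, that is, reads scaled for exon length and for the library's total, so levels of different genes can be compared per length. Averaged over the 6 libraries, Calr (820.8 RPKM) and Hsp90b1 (723.2 RPKM) held 49.0% of the summed level of the 31 genes, and with Pdia3, Hspa5 and Pdia4 the share was 71.2%. The summed level of all 31 genes was 3245, 3229 and 3178 RPKM in memory libraries and 3080, 3059 and 3112 RPKM in naive libraries. Every memory library was above every naive one, but the ratio of the means was only 1.04.

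**Figure D2:**
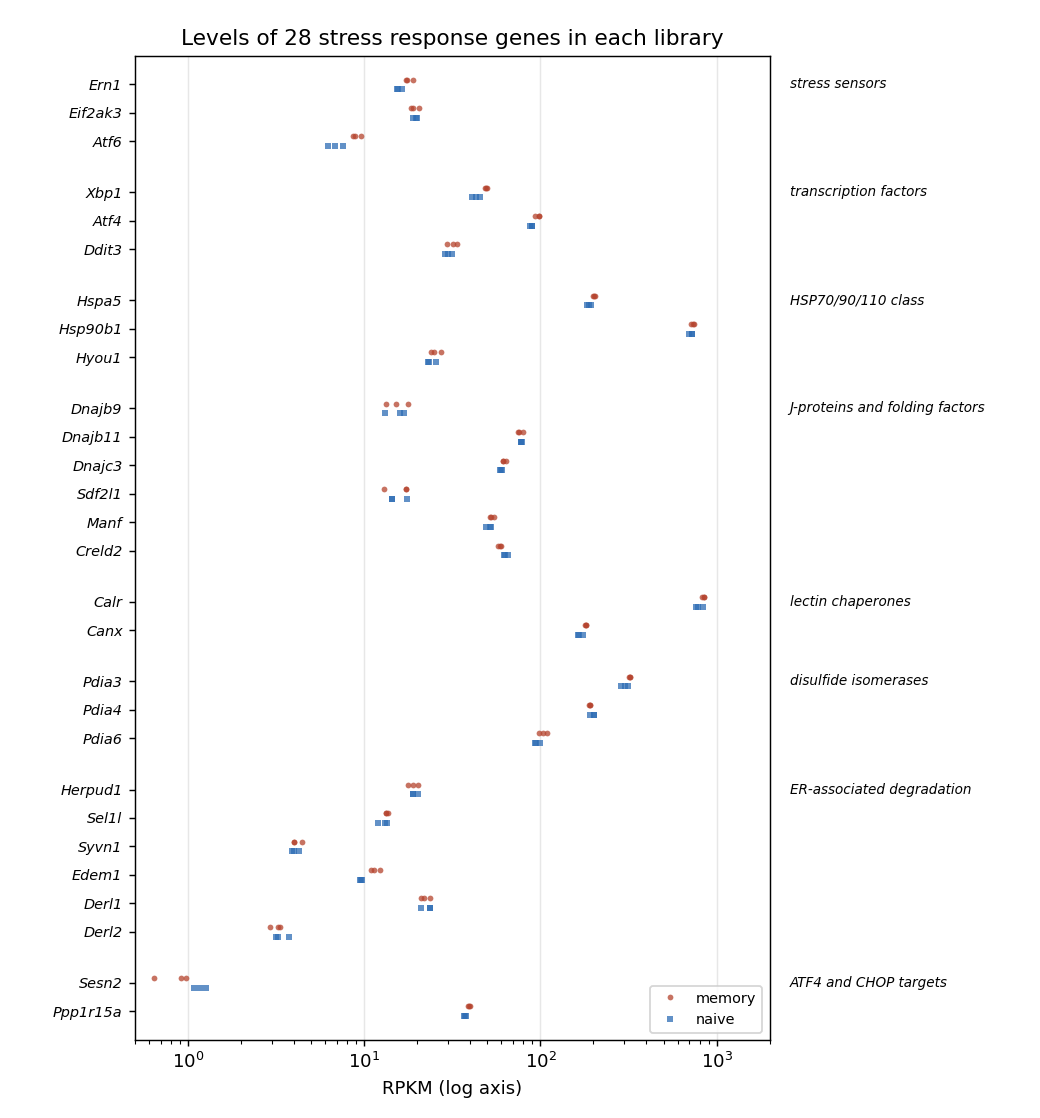
RPKM on a log axis of the 28 genes that passed the filter on low values, by role, with each memory library as a circle above and each naive library as a square below. The genes run from a mean of 1 RPKM (Sesn2) to 820.8 RPKM (Calr), and most memory and naive points lie close together on this axis.

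No gene of the list was called between memory and naive ILC1s. A gene was called when limma's Benjamini-Hochberg adjusted p was under 0.05. It was adjusted over the 13793 genes that averaged 0.5 RPKM or more, and 4.17% of those were called (3.2% higher and 0.972% lower in memory). Of the 31 genes, 28 passed the filter, and 0 were called higher and 0 lower, with adjusted p from 0.0696 to 0.98. At an unadjusted p under 0.05, 7 were higher and 1 was lower (background 11.2% and 6.29%). Of the 24 that averaged 10 RPKM or more, 6 were higher and 1 was lower at that p. Of all 4950 genes at that level, 613 were higher and 540 lower. On the log2(RPKM + 1) scale, all 28 limma 95% intervals lay within a 1.5-fold change in either direction, as did 11081 of the 13793 intervals of all genes tested. The bound is for this scale only, which understates changes, most of all near 1 RPKM. With 0.1 added in place of 1, the difference of Atf6 was 0.39 (SE 0.09), against 0.35 (SE 0.08). On that scale the interval of Atf6 passed a 1.5-fold change. Each interval is for 1 gene and is not adjusted for their number.

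Voom, which weights the reads recovered from the RPKM steps, called 5 of the 28 higher and 0 lower in memory, where its background was 5.76% and 2.52% (8.27% in either direction). These were Atf6, Edem1, Xbp1, Ern1 and Canx. The ranges of the groups were apart in 12 of the 28 genes (background 24.1%), with memory above naive in 10 (background 14.9%) and below it in 2 (background 9.24%). The background differs for the 4950 genes that averaged 10 RPKM or more. Of the 24 list genes at that level, memory lay above naive in 9 (background 15.6%) and below it in 1 (background 14.6%). Voom called 4 of these 24 higher and 0 lower, and 307 and 262 of the 4950. The median difference of the 28 was 0.06 on the log2 scale and 20 were positive (19 under quantile or median ratio scaling, and from 17 without memory replicate 2 to 22 without memory replicate 3), while the median of all genes tested was 0.02 and 54.6% of them were positive. Nothing in the labels ties a replicate to an animal of its own, so the p-values take in only the spread among libraries, part or all of which may be technical.

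**Figure D3:**
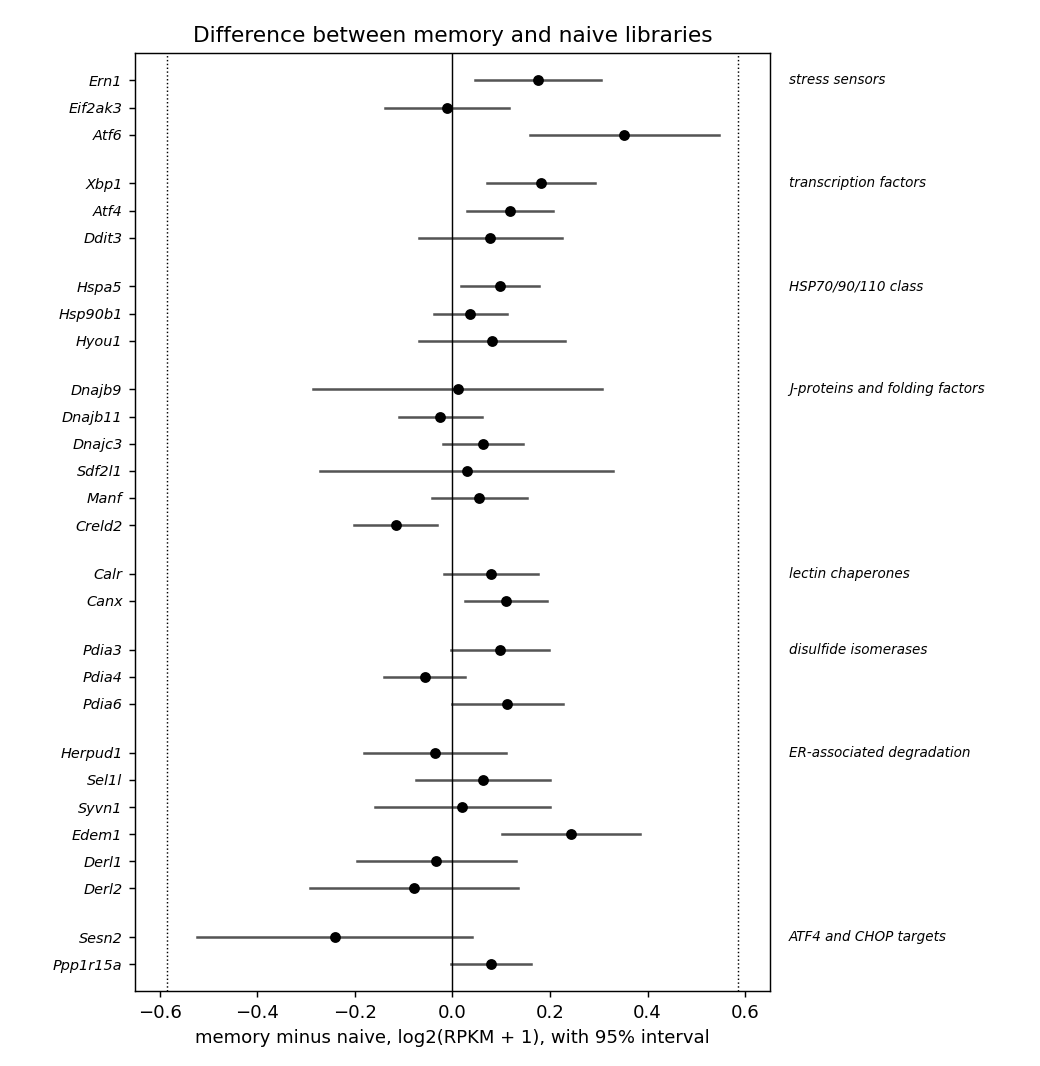
Memory minus naive difference on the log2(RPKM + 1) scale for the 28 genes tested, by role, with limma's 95% interval as a bar and dotted lines at a 1.5-fold change. Every interval stays between the dotted lines; Atf6 has the largest positive difference (0.35) and Sesn2 the largest negative one (-0.24).

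Among the sensors, Atf6 and Ern1 were higher in every memory library than in any naive library, while Eif2ak3 was level. Atf6 (chromosome 1, 170704674 to 170867771, mm10), the membrane-bound factor cut under ER stress, had 8.65, 8.86 and 9.63 RPKM in memory libraries and 7.58, 6.82 and 6.24 RPKM in naive libraries. The groups did not overlap, and on the log2(RPKM + 1) scale Atf6 had the largest difference of the list. Its means were 9.05 ± 0.51 and 6.88 ± 0.67 RPKM (memory and naive, SD, n = 3 each), a log2 difference of 0.35 (SE 0.08, interval 0.16 to 0.55, limma adjusted p = 0.0696). Voom called it (log2 difference 0.40, SE 0.07, adjusted p = 0.000216), and over all alternatives the adjusted p lay between 0.000216 and 0.211. By voom the difference of Sesn2 was larger in size (-0.48, SE 0.26), though not called.

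Ern1 (chromosome 11, 106394650 to 106487852), which encodes the kinase and RNase IRE1, had 18.9, 17.5 and 17.2 RPKM in memory libraries and 16.3, 15.2 and 15.6 RPKM in naive libraries. All memory values lay above all naive values. The log2 difference was 0.18 (SE 0.05, interval 0.05 to 0.30, limma adjusted p = 0.157), and voom called it (adjusted p = 0.0274; 0.0274 to 0.339 across alternatives). Eif2ak3, the gene of the kinase PERK, had 20.5, 19.0 and 18.4 RPKM in memory libraries and 18.9, 19.9 and 19.6 RPKM in naive libraries. These values overlapped (log2 difference -0.01, SE 0.05, interval -0.14 to 0.12, limma adjusted p = 0.943), and a gene model on the opposite strand, Gm43292, shares 8.05% of the exon bases. Whether the sensors differ from one another in their response was not tested.

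Of the transcription factors, Xbp1 and Atf4 had higher values in every memory library, with ratios of the means of 1.14 and 1.09, and Ddit3 overlapped. Xbp1 (chromosome 11, 5520659 to 5525893), whose spliced form drives chaperone and ERAD genes, had 49.6, 48.5 and 49.2 RPKM in memory libraries and 43.3, 45.4 and 40.9 RPKM in naive libraries. The memory libraries were closely grouped and all lay above the naive ones. The log2 difference was 0.18 (SE 0.05, interval 0.07 to 0.29, limma adjusted p = 0.094), and voom called the gene (adjusted p = 0.0211; 0.0211 to 0.235 across alternatives). Spliced and unspliced Xbp1 are counted together here.

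Atf4 (chromosome 15, 80255184 to 80257540), the factor translated when eIF2 is phosphorylated, had 98.67, 92.83 and 97.95 RPKM in memory libraries and 89.97, 89.03 and 87.40 RPKM in naive libraries. Again memory lay above naive in every library, but neither limma (log2 difference 0.12, SE 0.04, adjusted p = 0.158) nor voom (adjusted p = 0.167) called it. Ddit3, which encodes CHOP, had 33.7, 32.1 and 29.5 RPKM in memory libraries and 29.8, 28.7 and 31.5 RPKM in naive libraries. These ranges overlapped (limma adjusted p = 0.583). Over the 6 libraries the level of Atf4 stood at percentile 97.5 of the genes of the table and that of Ddit3 at percentile 91.7.

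**Figure D4:**
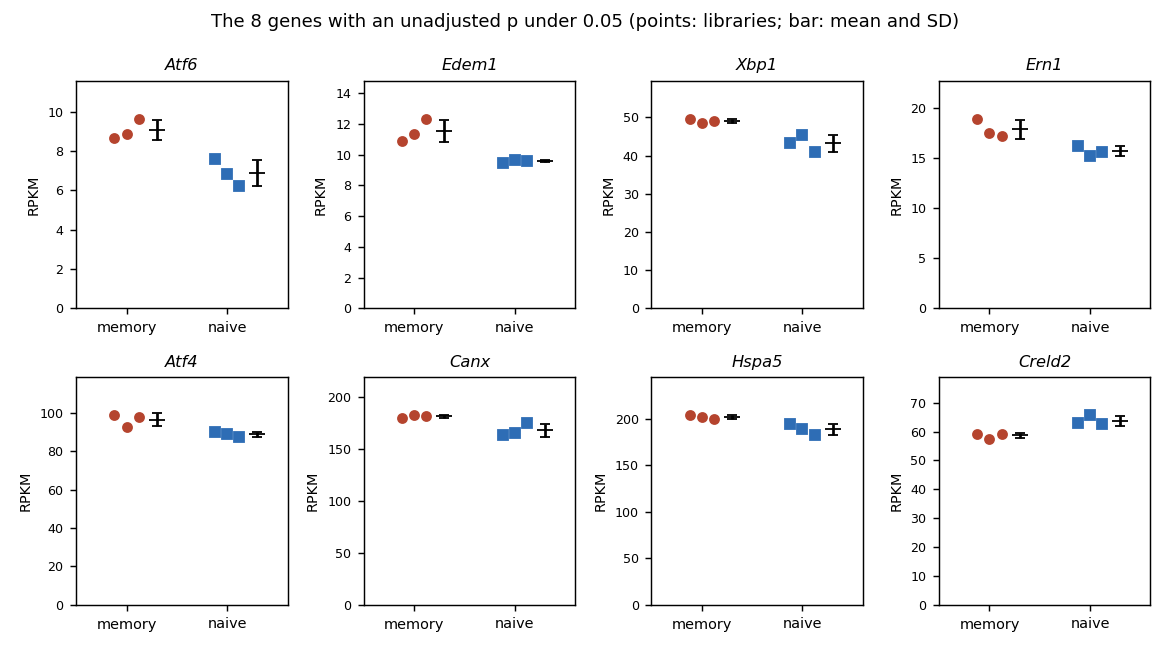
RPKM per library, on axes from 0, of the 8 genes with an unadjusted limma p under 0.05, with the mean and SD as a bar beside the points (n = 3 each). In each panel the memory and naive points do not overlap, and memory is higher in all but Creld2; the differences of the means run from 1.07-fold (Hspa5) to 1.31-fold (Atf6).

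The ER chaperones of the HSP70, HSP90 and HSP110 classes had ratios of the means between 1.03 and 1.07. Hspa5 (chromosome 2, 34771970 to 34777547) encodes BiP, the HSP70 of the ER lumen that also holds the sensors inactive. It had 203.85, 201.75 and 199.96 RPKM in memory libraries and 194.23, 189.00 and 182.80 RPKM in naive libraries. The lowest memory value was above the highest naive one. The log2 difference was 0.10 (SE 0.03, limma adjusted p = 0.197, voom adjusted p = 0.0637). Under quantile normalization it was 0.17 and Hspa5 was called (adjusted p = 0.0329), the only gene of the list called by any of the limma fits on RPKM.

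Hsp90b1, the HSP90 of the ER lumen, had 740.3, 736.5 and 720.3 RPKM in memory libraries and 723.9, 697.2 and 720.9 RPKM in naive libraries, which overlapped (limma adjusted p = 0.611). It shares 10.3% of its exon bases with the pseudogene 1810014B01Rik on the opposite strand and shorter stretches with Gm15344 and the miRNA gene Gm25745 on its own strand, so its level is uncertain to that extent. Hyou1, an HSP110-like chaperone of the ER, averaged 25.33 ± 1.603 RPKM in memory and 23.9 ± 1.34 RPKM in naive libraries (SD, n = 3 each) and overlapped too (limma adjusted p = 0.575). The summed level of these 3 genes was 944 to 971 RPKM in memory and 912 to 941 RPKM in naive libraries.

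Of the 6 ER J-proteins and other folding factors, Creld2 had the lower values in memory, and their summed level was 276 to 284 RPKM in memory and 279 to 285 RPKM in naive libraries. Creld2, a secreted ER stress-inducible protein, had 59.2, 57.6 and 59.3 RPKM in memory libraries and 63.0, 65.6 and 62.5 RPKM in naive libraries. No memory value reached the naive range, and Creld2 was the only gene with an unadjusted p under 0.05 in that direction. The log2 difference was -0.12 (SE 0.04, limma adjusted p = 0.156; voom 0.281; 0.0941 to 0.352 across alternatives). Dnajc3, a co-chaperone that also inhibits eIF2 kinases, had 61.2, 61.6 and 64.0 RPKM in memory libraries and 60.3, 58.7 and 59.7 RPKM in naive libraries. Its groups came close without overlapping (limma adjusted p = 0.417).

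The other folding factors overlapped between the groups. Manf, a secreted factor released under ER stress, averaged 53.1 ± 1.43 RPKM in memory and 51.0 ± 1.69 RPKM in naive libraries. Dnajb11, an ER J-protein partner of BiP, averaged 76.5 ± 2.36 and 77.8 ± 0.90 RPKM (memory and naive). Dnajb9 and Sdf2l1, typical early targets of the response, had coefficients of variation above 11% in both groups. Dnajb9 had 15.04, 17.71 and 13.34 RPKM in memory libraries and 16.78, 15.90 and 13.02 RPKM in naive libraries. Sdf2l1 had 17.2, 17.2 and 12.9 RPKM in memory libraries and 14.4, 14.3 and 17.4 RPKM in naive libraries. Their intervals (-0.29 to 0.31 and -0.27 to 0.33) were wider than those of the other members above 10 RPKM.

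Calreticulin and calnexin, the lectin chaperones that bind sugar chains of new glycoproteins, were both abundant. Canx had 179.6, 182.1 and 181.3 RPKM in memory libraries and 163.5, 165.1 and 174.7 RPKM in naive libraries. Memory values were within a narrow band above all naive values, of which replicate 3 lay nearest. The log2 difference was 0.11 (SE 0.04, interval 0.02 to 0.19, limma adjusted p = 0.174), and voom called it (adjusted p = 0.0401; 0.0401 to 0.372 across alternatives). Calr had 849.1, 851.2 and 829.5 RPKM in memory libraries and 768.7, 787.6 and 838.6 RPKM in naive libraries. Here naive replicate 3 fell inside the memory range (limma adjusted p = 0.372).

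The protein disulfide isomerases, which form and correct disulfide bonds, had differences of both signs. Pdia3, which works with both lectins, had 316.7, 324.0 and 322.2 RPKM in memory libraries and 314.8, 300.3 and 284.9 RPKM in naive libraries, without overlap (limma adjusted p = 0.293). Pdia6 averaged 103.6 ± 5.35 RPKM in memory and 95.7 ± 3.07 RPKM in naive libraries (limma adjusted p = 0.288). Pdia4 had 191.5, 189.2 and 190.1 RPKM in memory libraries and 190.3, 202.5 and 201.2 RPKM in naive libraries. Its log2 difference was -0.06 and changed sign under quantile normalization (0.028), and it was not called in either case.

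In ERAD, which draws misfolded proteins back to the cytosol for destruction, only Edem1 separated the groups. Edem1 (chromosome 6, 108828641 to 108859356), which promotes trimming of the sugar chains of misfolded glycoproteins, had 10.9, 11.4 and 12.3 RPKM in memory libraries and 9.48, 9.65 and 9.59 RPKM in naive libraries. The naive libraries were nearly equal and all lay below the memory ones. The ratio of the means was 1.2 (log2 difference 0.24, SE 0.06, interval 0.10 to 0.38, limma adjusted p = 0.083), and voom called it (adjusted p = 0.011; 0.011 to 0.214 across alternatives).

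The core of the ERAD complex overlapped between the groups. Sel1l, the adaptor, averaged 13.4 ± 0.21 RPKM in memory and 12.8 ± 0.79 RPKM in naive libraries, and its ubiquitin ligase partner Syvn1 averaged 4.13 ± 0.26 and 4.05 ± 0.18 RPKM (memory and naive). Herpud1, which organises that complex, averaged 18.9 ± 1.26 RPKM in memory and 19.4 ± 0.80 RPKM in naive libraries. Derl1 and Derl2, membrane proteins of the exit channel, averaged 22.1 and 3.14 RPKM in memory and 22.7 and 3.37 RPKM in naive libraries. Limma's adjusted p for these 5 genes ran from 0.643 to 0.926. Derl3, a paralog typical of secretory cells, had 1, 7 and 9 reads in memory libraries and 8, 0 and 6 reads in naive libraries and was not tested.

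The targets of ATF4 and CHOP differed widely in level. Ppp1r15a, which encodes the phosphatase subunit GADD34 that reverses eIF2 phosphorylation, had 39.8, 38.8 and 39.3 RPKM in memory libraries and 36.7, 37.1 and 37.6 RPKM in naive libraries. Both groups were tightly spaced and apart (ratio of means 1.06, log2 difference 0.08, SE 0.03, limma adjusted p = 0.3). Sesn2, a stress-induced inhibitor of mTORC1, had 0.98, 0.91 and 0.64 RPKM in memory libraries and 1.26, 1.08 and 1.17 RPKM in naive libraries. Its groups did not overlap either, with 44 to 75 reads in memory and 76 to 86 in naive libraries. The ratio of the means was 0.718, and neither limma (log2 difference -0.24, SE 0.12, adjusted p = 0.36) nor voom (log2 difference -0.48, SE 0.26, adjusted p = 0.318) called it. The limma scale understates changes near 1 RPKM.

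Asns and Trib3, textbook ATF4 targets, were at the limit of detection although Atf4 was abundant. Asns, the asparagine synthetase, had 0 to 2 reads per library, and Trib3, a pseudokinase induced by CHOP, had 0 to 6. A count of 0 allows up to 0.0587 RPKM of Asns and 0.0755 RPKM of Trib3 in the shallowest library (3 reads, counting error only). These limits take each read as independent and would be higher if each mate was counted separately. No fold is given for either.

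**Figure D5:**
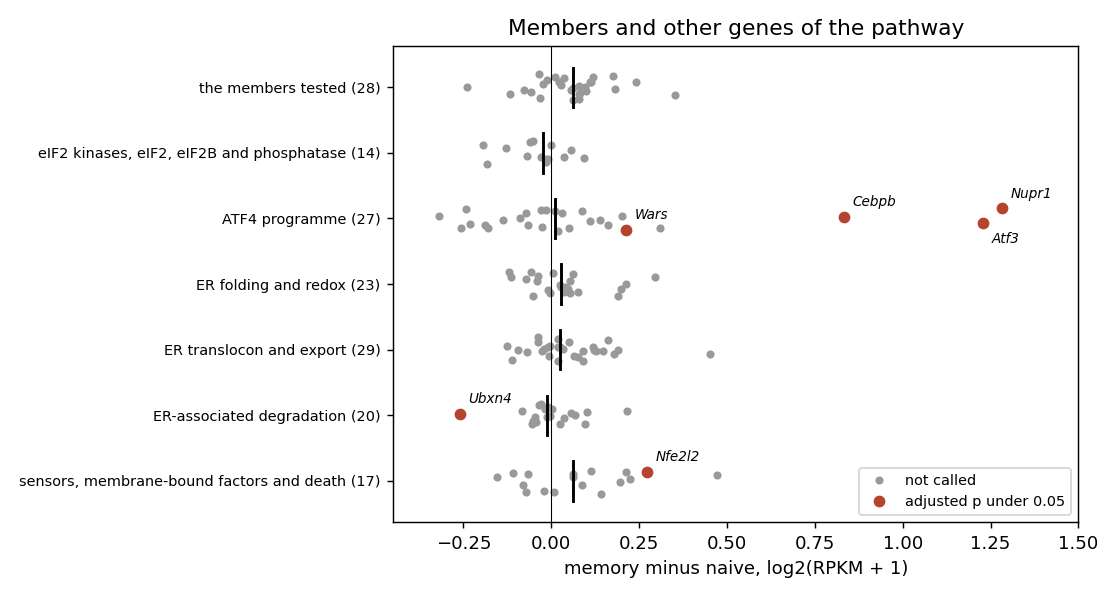
Memory minus naive difference on the log2(RPKM + 1) scale for the 28 members tested and for 6 lists of other pathway genes (number tested in brackets), with the median of each list as a vertical bar. Named red points are the 6 genes with a limma adjusted p under 0.05; Atf3, Nupr1 and Cebpb stand far to the right of the other genes of their list.

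Beyond the 31 genes, 130 other tested genes of the pathway in 6 lists gave 5 calls higher and 1 lower in memory, and the median difference was 0.01. These shares are close to those over all genes tested (3.2% higher and 0.972% lower). Of 27 tested genes of the ATF4 programme, Atf3, Nupr1, Cebpb and Wars rose and none fell. Atf3, a stress-induced factor, had 2.25, 1.64 and 1.36 RPKM in memory libraries and 0.15, 0.18 and 0.15 RPKM in naive libraries (log2 difference 1.23, SE 0.15, limma adjusted p = 0.0055). Nupr1, a small chromatin protein induced by stress, had 1.78, 2.01 and 1.68 RPKM in memory libraries and 0, 0.20 and 0.30 RPKM in naive libraries (log2 difference 1.28, SE 0.14, limma adjusted p = 0.00354). Cebpb, a partner of ATF4 on its target genes, had 14.02, 14.39 and 12.73 RPKM in memory libraries and 7.47, 7.71 and 6.61 RPKM in naive libraries (log2 difference 0.83, SE 0.08, limma adjusted p = 0.0018). The groups were far apart in each, with a ratio of the mean RPKM of 10.8 for Atf3 and 1.89 for Cebpb, and all 3 kept their call whichever of the 6 libraries was left out.

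The same libraries differed in myeloid RNA. Of 15 tested macrophage and monocyte markers 11 rose and none fell, and the summed level of the 16 genes was 602 to 628 RPKM in memory and 124 to 132 RPKM in naive libraries. Lyz2 held most of the memory sum, with a mean of 448 RPKM in memory and 37.8 RPKM in naive libraries. Ccr2 (67.9 and 66.2 RPKM, memory and naive), Vsig4, Timd4 and Cd5l were not called. The 8 dendritic cell and MHC class II markers summed to 330 to 336 RPKM in memory and 47.6 to 52.8 RPKM in naive libraries, with 6 of 7 tested genes higher. The 3 neutrophil markers of the table summed to 1.53 to 2.12 RPKM in memory and 0.37 to 0.62 RPKM in naive libraries, and the 12 hepatocyte markers to 10.6 to 11.3 RPKM in memory and 4.52 to 6.69 RPKM in naive libraries. Csf3r, the 1 neutrophil marker tested, and Alb, 1 of 6 hepatocyte markers tested, rose. Csf3r made up most of the neutrophil sum in memory (1.55 RPKM, against 0.17 RPKM in naive libraries). S100a8 (0 and 0.09 RPKM, memory and naive) and S100a9 (0.31 and 0.20 RPKM) overlapped between the groups. The 8 endothelial and stellate cell markers summed to 19.4 to 19.9 RPKM in memory and 14.8 to 17.1 RPKM in naive libraries. Pecam1, the only 1 of them tested, made up most of that sum (18.6 and 14.9 RPKM, memory and naive). Limma did not call Pecam1 (adjusted p = 0.0682), and voom called it higher (adjusted p = 0.000596). Myeloid cells express Atf3, Nupr1 and Cebpb too, and the part of these cells in the rises, or in the members' values, was not tested. In bulk RNA, more cells of a type and more RNA per cell cannot be told apart. The plasma cell genes Jchain and Sdc1 had at most 0.0662 RPKM in any library. The 6 B and plasma cell markers of the table, which include Derl3, summed to 3.36 to 4.95 RPKM in memory and 4.04 to 5.1 RPKM in naive libraries. Prdm1 made up most of that sum (2.80 and 3.17 RPKM, memory and naive). The 9 ILC1 markers, among them Ncr1 and Tbx21, summed to 1238 to 1280 RPKM in memory and 1244 to 1311 RPKM in naive libraries. Of these 9 none rose and Cxcr6 fell, and 7 had a negative difference. Cxcr6, a chemokine receptor of liver-resident lymphocytes, averaged 48.0 RPKM in memory and 58.8 RPKM in naive libraries (log2 difference -0.29, SE 0.04, limma adjusted p = 0.0144, and up to 0.0657 with 1 library left out). Il2rb was called lower by voom (adjusted p = 0.013) and not by limma (0.14). The 6 conventional natural killer cell markers summed to 11.2 to 13.3 RPKM in memory and 9.12 to 11.1 RPKM in naive libraries, and of the 4 tested S1pr5 rose and none fell. S1pr5, a receptor for cell exit from tissue, averaged 2.85 RPKM in memory and 1.07 RPKM in naive libraries (log2 difference 0.90, SE 0.13, limma adjusted p = 0.0139, and up to 0.0658 with 1 library left out).

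The tRNA synthetase Wars, also an interferon-induced gene, had 16.05, 16.42 and 16.02 RPKM in memory libraries and 13.9, 13.7 and 13.7 RPKM in naive libraries (log2 difference 0.21, SE 0.04, limma adjusted p = 0.044). The other 9 of 10 tRNA synthetase genes were not called, and 3 of those 9 had a positive difference. Under quantile normalization or median ratio scaling, Wars was no longer called and Gars was called lower. Nfe2l2, which encodes the antioxidant factor NRF2, had 16.01, 16.04 and 17.25 RPKM in memory libraries and 12.9, 13.9 and 13.6 RPKM in naive libraries (log2 difference 0.27, SE 0.05, limma adjusted p = 0.0422). In both genes the groups were apart, but the call was lost whichever library was left out (limma adjusted p from 0.107 to 0.159 for Wars and from 0.0966 to 0.139 for Nfe2l2).

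Of 20 tested genes of a wider ERAD list, Ubxn4 fell and none rose. Ubxn4 (erasin), an ER membrane protein that binds the segregase VCP, had 67.7, 73.9 and 70.7 RPKM in memory libraries and 83.1, 85.3 and 86.4 RPKM in naive libraries (log2 difference -0.26, SE 0.04, limma adjusted p = 0.0206). The groups were well apart, but the call was kept only when memory replicate 2 was the library left out (limma adjusted p from 0.0372 to 0.089).

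The lists of the eIF2 machinery, of ER folding and of the translocon had no call (14, 23 and 29 genes tested by limma; 1, 5 and 4 with an unadjusted p under 0.05; 1, 3 and 2 called by voom). Over all genes tested, 17.5% had an unadjusted p under 0.05 and voom called 8.27%. In the eIF2 list, Eif2s3x, the gamma subunit of eIF2, averaged 30.3 ± 0.80 RPKM in memory and 34.6 ± 1.32 RPKM in naive libraries (limma adjusted p = 0.0819). The double-stranded RNA sensing eIF2 kinase Eif2ak2 averaged 27.6 and 25.8 RPKM (memory and naive), and the eIF2B subunits Eif2b1 and Eif2b3 averaged 2.67 and 1.47 RPKM in memory and 3.19 and 1.7 RPKM in naive libraries. In the folding list, the prolyl isomerase Fkbp2 averaged 156.6 ± 1.81 RPKM in memory and 127.9 ± 13.4 RPKM in naive libraries (limma adjusted p = 0.0823, voom 0.00276). Limma called it without naive replicate 3 (adjusted p = 0.0154). Txndc12, Erp29 and Dnajc10, thioredoxin-fold proteins of the ER, had log2 differences of 0.20, 0.19 and 0.21. In the translocon list, Sec61g and Sec63 of the translocon, Ssr3 of the translocon-associated complex and the signal peptidase subunit Sec11c had log2 differences of 0.45, 0.15, 0.16 and 0.12, with limma adjusted p from 0.184 to 0.277.

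The 11 genes with the ERSE or ERSE-II letters were spread over the list in level but not in difference. The 10 of them that were tested had differences from -0.12 (Creld2) to 0.11 (Pdia6), with a median of 0.05. All 28 members tested ran from -0.24 to 0.35. For the 14 tested genes whose promoters were searched without a match, the median was 0.07 and the range -0.24 to 0.24. Atf6 is not among either, since no promoter was matched for it.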

How the data were processed

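The authors deposited 1 table of RPKM values per gene and library. Per the submitters' processing notes, the tools were edgeR 3.12.1, Subread 1.5.1, featureCounts and STAR 2.5.3a and the build was mm10, with no roles given. The kit was stranded per the labels' protocols; the sources used here give neither the strand setting of the counting nor the annotation release. Dividing by the value of 1 read gave whole reads (within 0.001) for 100% of values, 18697093 to 23795266 per library, and 69.8% to 72.3% of counts from 1 to 10 were even, as happens if each mate was counted separately, so that reads would exceed independent molecules. All 31 members matched GENCODE M21 protein coding genes at overlapping positions, and 10 share exon bases (at most 10.3%) with another gene.

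The test was limma-trend (limma 3.58.1, R 4.3.3) of memory minus naive on log2(RPKM + 1), where the 6 libraries averaged 0.5 RPKM or more, with Benjamini-Hochberg adjustment over all genes tested. The script was tested on simulated data first. Members and lists were chosen with earlier results of these data known. All members are described. Full values were given for every member that had groups without overlap or an adjusted p under 0.2, and for the sensors and transcription factors. In the other pathway lists every called gene was given with its values, or else the 4 with the smallest adjusted p were named. Marker lists were given by their sums and counts, with a few markers named after their values were seen. Alternatives were array weights, a replicate block, voom on recovered reads, each library left out, median ratio scaling, quantile normalization, no filter or a minimum of 2 RPKM, and pseudocounts of 0.1 and 0.5.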

Additional observations from a re-analysis of the deposited data

How the results depend on the processing

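No member was called in 13 of the 15 alternatives, which included all 6 that left out a library. The exceptions were quantile normalization (1 higher, Hspa5) and voom on the recovered reads (5 higher). All genes called numbered 575, against 1141 with voom, 271 with the replicate block and 270 to 388 without 1 library. Calls among the other pathway genes, 5 higher and 1 lower, became 3 higher with the 2 RPKM filter, 3 higher and 2 lower with quantile normalization or median ratio scaling, 3 higher and 0 lower with the replicate block, and 12 higher and 4 lower with voom. Without 1 library they were 3 to 4 higher and 0 to 1 lower. The replicate numbers did not pair the libraries (correlations of same-numbered deviations -0.084, -0.04 and -0.003), and no memory library correlated best with the naive library of its own number. The block called no member, and Wars, Nfe2l2 and Ubxn4 lost their calls under it. Nfe2l2 was also lost without a filter and under quantile normalization or median ratio scaling, and the 2 RPKM filter removed Atf3 and Nupr1 from the test. The cause of the changed calls was not tested.

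Small differences changed sign in 7 members that were not called. Quantile normalization turned Dnajb9 to -0.0215, Syvn1 to -0.027 and Pdia4 to 0.0284, and median ratio scaling turned Dnajb9 to -0.0105. Without 1 library, Eif2ak3 ranged from -0.053 to 0.0198, Dnajb9 from -0.0912 to 0.102, Sdf2l1 from -0.036 to 0.158, Herpud1 from -0.0823 to 0.00885, Syvn1 from -0.0203 to 0.0496 and Derl1 from -0.0885 to 0.00595. Depth limits Derl3, Trib3 and Asns, with at most 9 reads in any library.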

Other observations

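Within the ATF4 programme, the genes of serine synthesis and mitochondrial one-carbon metabolism had lower values in memory. They were picked after their values were seen and so have no test as a group. Phgdh, the first enzyme of serine synthesis, had 20.0, 17.9 and 17.3 RPKM in memory libraries and 21.4, 23.6 and 24.7 RPKM in naive libraries. Shmt2, which passes the carbon of serine to folate in mitochondria, had 20.5, 19.2 and 21.5 RPKM in memory libraries and 24.4, 23.4 and 25.1 RPKM in naive libraries. Psat1, Psph and Mthfd2 averaged 2.29, 5.81 and 4.24 RPKM in memory and 2.95, 6.25 and 5.16 RPKM in naive libraries. In all 5 the groups did not overlap (background 9.24%). Limma called none (adjusted p from 0.0663 to 0.542, 3 with an unadjusted p under 0.05), and voom called Phgdh (adjusted p = 0.0044) and Shmt2 (0.0262).

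Several other ATF4 targets were near the limit of detection in both groups. Pycr1, Slc7a11, Slc1a4, Gpt2, Cth and Gdf15 had at most 8 reads in any library.

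Of the 31 genes of the table with ERSE or ERSE-II letters in a promoter, 20 were not members. Limma called 0 of the 21 tested (7 with an unadjusted p under 0.05), and voom called 5, of which Canx is a member and Nucb1, Pan2, Rbm39 and Xlr3b are not. Over all genes tested, 17.5% had an unadjusted p under 0.05 and voom called 8.27%.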
